A study of Sus scrofa with 4 samples.

Results

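The transcripts examined here were those of 10 genes of endoplasmic reticulum stress and protein folding in oocytes of female pigs, chosen by their gene symbols among the 16050 genes with expression values. They comprise the stress sensors ATF6 and ERN1, the transcription factors ATF4, XBP1 and DDIT3, the lectin chaperones CALR and CANX, and the disulfide isomerases PDIA3, PDIA4 and PDIA6. RNA had been sequenced from oocytes at metaphase II, matured in vitro within their cumulus complexes for 44 h, either in medium with no added Cu (Control) or in medium with 25 μg/mL Cu from copper sulfate. The ovaries came from a slaughterhouse, and each library pooled 3 denuded oocytes whose polyadenylated RNA was amplified by Smart-seq2, a method for very small samples. The 4 libraries with values of their own were named by their labels Control 1, Control 2, Cu 1 and Cu 3. The methods describe 3 sets per group, and the remaining set of either group was not analysed here on its own. Nothing in the labels ties the libraries to separate animals or cultures, so the p-values below measure only the spread between these libraries.

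Proteins that enter the secretory pathway fold in the endoplasmic reticulum. Calnexin and calreticulin hold new glycoproteins there by their sugars, and the disulfide isomerases form and rearrange their disulfide bonds. When unfolded proteins build up, sensors in the membrane start the unfolded protein response. IRE1, the product of ERN1, splices the XBP1 mRNA, ATF6 is cut to release a transcription factor, and PERK, the product of EIF2AK3, phosphorylates the initiation factor eIF2, which favours translation of ATF4 and, after it, transcription of DDIT3 (CHOP). In oocytes this compartment also stores the calcium that is released at fertilization and makes the zona pellucida glycoproteins. Much of this response acts on splicing, cleavage and translation, which the level of an mRNA does not show.

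Expression was given as FPKM, fragments scaled by transcript length and by the size of the library, which allows levels of different genes to be compared. FPKM carry no read numbers, so sequencing depth is unknown. Their sum was between 616082 and 672681 in the 4 libraries. Across the tested genes, which are not independent replicates, Cu 1 correlated with the other 3 libraries at r = 0.918 to 0.923. Those 3 correlated with each other at 0.959 to 0.976. Cu 1 thus stood apart, and several of the results below are also given without it. More genes reached 1 FPKM in Cu 1 (9364) than in Control 1 (7923), Control 2 (8162) and Cu 3 (8122). Fewer were listed at 0, with 1920 in Cu 1 against 2793, 2362 and 2892. The part of this difference in the results below was not tested. All 14 oocyte markers, among them ZP2, ZP3, GDF9 and BMP15, were at 1 FPKM or more in every library. Their summed level was 35786 and 35601 FPKM in the Control libraries and 29053 and 28275 FPKM in the Cu libraries. The highest of them, BTG4, had 26512 (Control 1), 24654 (Control 2), 16671 (Cu 1) and 17672 FPKM (Cu 3). Without BTG4 the other 13 summed to 9274 (Control 1), 10947 (Control 2), 12382 (Cu 1) and 10604 FPKM (Cu 3), with the groups overlapping. Of 20 markers of cumulus and granulosa cells, 14 had values, and 10 of these were under 1 FPKM in every library, including AMH, CYP19A1, PTX3 and VIM. Without RGS2, which lay between 807 and 1120 FPKM, the summed level of these markers was at most 21.6 FPKM. The single blood marker with values, PTPRC, was at most 0.32 FPKM, and the 5 stromal markers summed to at most 2.19 FPKM. Since FPKM are shares of a library, less RNA per oocyte and a change of its make-up cannot be told apart. The part of the marker shift in the results below was not tested.

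At these levels the oocytes carried abundant mRNA for 9 of the 10 genes. Averaged over the 4 libraries, the order was PDIA4 (87.8 FPKM), DDIT3 (77.9), CALR (72.8), PDIA3 (56.1), ATF4 (33.5), PDIA6 (30.1), ERN1 (20.5), ATF6 (17.3), CANX (11.4) and XBP1 (0.0075 FPKM). Neighbours in this order overlapped in their ranges over the libraries throughout, except CANX and XBP1. PDIA6 was nevertheless above ERN1, and ATF6 above CANX, within each of the 4 libraries. The top ranks are therefore not resolved, while the ranges of PDIA4 and CANX, from one end of the order to the other, did not overlap. Apart from XBP1, the lowest place of any of these genes among all genes with values was percentile 74.3, for CANX in Control 2, and the highest percentile 95.5, for PDIA4 in Cu 1. Together the 10 genes made up 0.0545% and 0.0568% of all FPKM in Control 1 and 2, 0.0833% in Cu 1 and 0.0555% in Cu 3. In that sum Cu 1 was alone in being high.

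**Figure D1:**
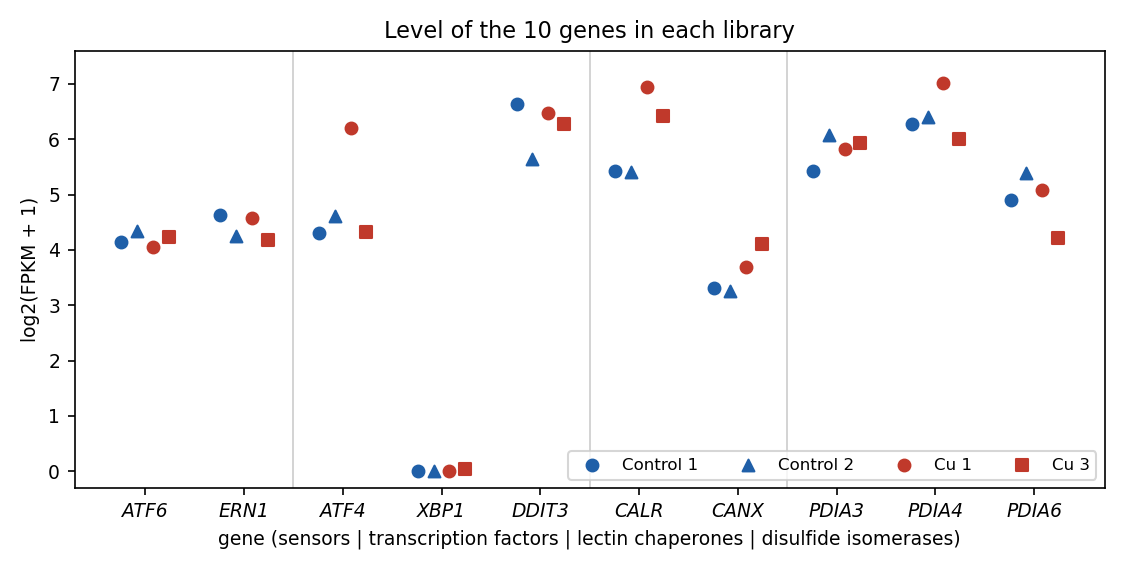
Level of the 10 genes in each library as log2(FPKM + 1), with blue symbols for the 2 Control and red symbols for the 2 Cu libraries and no error bars. For CALR and CANX both red symbols lie above both blue ones, ATF4 is high in Cu 1 only, and XBP1 is at or next to 0 in all 4.

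The comparison of Cu with Control was fitted on log2(FPKM + 1) for the 8541 genes that reached 1 FPKM in at least 2 libraries, of which 9 were among the 10 genes, XBP1 being left out. All fold changes below are on that scale, which makes changes of weakly expressed genes smaller. At an adjusted p of 0.05, limma with Benjamini-Hochberg adjustment called 0 of the 9 genes in either direction, as it called 0 (0%) of all tested genes higher and 0 (0%) lower. The smallest adjusted p of any gene was 0.631. At an unadjusted p of 0.05, 1 of the 9, CALR, was higher in Cu, where 5.58% of all tested genes were, and 0 were lower, where 1.43% were. With a log2 fold change of 1.5 in addition, the count was 0 of 9 in both directions, against 1.76% of all genes higher and 0.117% lower. For a single gene, the exact permutation test (two-sided, 2 against 2) has a smallest possible p of 0.33. The groups were separated, each Cu library exceeding each Control library, for 2 of the 9 genes, CALR and CANX, as they were for 25.4% of all genes, and separated the other way for 0 of the 9 and 13.4% of all genes.

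As a group the 9 genes lay where the rest of the transcriptome lay. Their median log2 fold change was 0.17, with 6 higher and 3 lower in Cu. The median of all tested genes was 0.16, with 64.3% higher and 35.7% lower. Against the mean of the Control libraries, Cu 1 alone gave a median of 0.34 with 7 of the 9 above, and Cu 3 alone gave -0.01 with 4 above. Over all tested genes the corresponding medians were 0.31 for Cu 1 and 0.0023 for Cu 3, and the 9 genes thus lay close to all genes in either library. The shift of all genes depends on scaling, as its median was -0.0061 after upper-quartile scaling and -0.05 after quantile normalization, and the median of the 9 genes was then -0.032 and 0.061. Relative to the median of all genes, the log2 fold change was 1.11 for CALR, 0.65 for ATF4, 0.45 for CANX, 0.08 for DDIT3, 0.01 for PDIA4, -0.03 for PDIA3, -0.23 for ERN1, -0.26 for ATF6 and -0.66 for PDIA6. The spread between replicates was large beside these differences. The absolute difference between the Control libraries had a median of 0.30 over the 9 genes and 0.27 over all genes, and that between the Cu libraries 0.43 and 0.56. The difference between Cu 1 and Cu 3 was larger than the difference between the groups for 5 of the 9 genes.

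**Figure D2:**
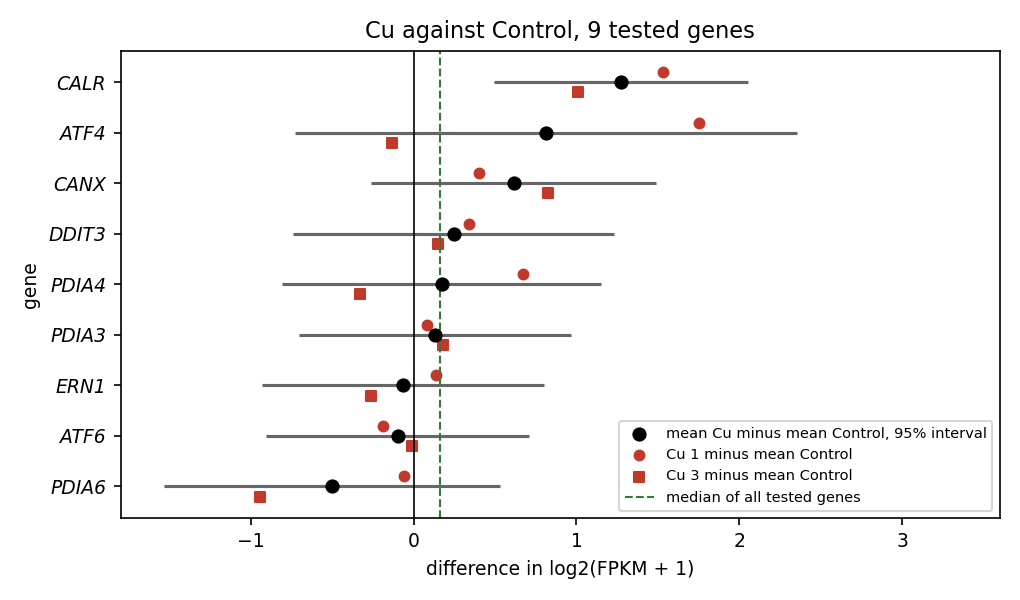
Differences in log2(FPKM + 1) from the Control mean for the 9 tested genes: black points are Cu mean minus Control mean with 95% intervals from limma, red circles Cu 1 alone and red squares Cu 3 alone. The interval of CALR, 0.49 to 2.05, is the only one that does not reach 0, and for ATF4, PDIA4 and ERN1 the 2 Cu libraries fall on opposite sides of 0.

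Of the roles, only the lectin chaperones had their summed FPKM separated by group, with 51.0 (Control 1), 50.0 (Control 2), 134 (Cu 1) and 101 FPKM (Cu 3), most of it from CALR. CALR, calreticulin, is the soluble lectin of the calnexin cycle and a main calcium-binding protein of the compartment, and it lies at chr2:66098263-66102074 of Sscrofa11.1, the build in the submitters' processing notes (positions from RefSeq). It had 42.0 (Control 1), 41.4 (Control 2), 123 (Cu 1) and 85.2 FPKM (Cu 3). The Control libraries were almost equal, and even the lower Cu library was about double their level. Its mean was 41.7 ± 0.41 FPKM in Control and 104 ± 26.5 FPKM in Cu (SD, n = 2 each), a 2.49-fold ratio. The log2 fold change was 1.27 (standard error 0.32, 95% interval 0.49 to 2.05), with an unadjusted p of 0.0072 and an adjusted p of 0.631 (limma). Among the tested genes this p ranked 96th and the fold change stood at percentile 96.0. Without Cu 1 the log2 fold change was 1.01 and the adjusted p 0.09, and without Cu 3 they were 1.53 and 0.002, where the spread rests on the Control pair. Without Control 1 or Control 2 the fold change was 1.28 or 1.26, and the unadjusted p 0.062 or 0.065. The authors' means of the groups were 32.8 FPKM for Control and 79.6 FPKM for Cu. Both lie below the 2 libraries of their group printed here, so the level of each group depends on which sets enter it. If they average the 3 sets described, the remaining set of each group was lower than both printed libraries. The remaining Cu set was then also below both Control libraries, and the groups would overlap. Separation of the groups is thus shown only for the 4 libraries with values of their own.

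CANX, calnexin, is the membrane-bound counterpart of calreticulin, at chr2:78879031-78915828. It had 8.95 (Control 1), 8.54 (Control 2), 11.9 (Cu 1) and 16.3 FPKM (Cu 3). The groups did not overlap, but unlike for CALR the higher Cu library was Cu 3. The log2 fold change was 0.61 (95% interval -0.26 to 1.49; limma, adjusted p = 0.748), and after quantile normalization, at 0.36, the libraries overlapped. Without Cu 1 it was 0.83. The authors' mean for Control, 11.0 FPKM, was above both Control libraries shown here, against 13.4 FPKM for Cu. For CANX too, separation is shown only for the libraries with values of their own.

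Ratios within a library do not depend on scaling between libraries, and those with CALR, chosen after its values were seen, are given as a description. CALR had 4.69 and 4.85 times the FPKM of CANX in Control 1 and 2, 10.3 times in Cu 1 and 5.23 times in Cu 3. The Cu 3 ratio was thus close to Control, and CANX was at its highest in that library. Relative to PDIA3, its partner isomerase, CALR stood at 0.996 and 0.626 in Control 1 and 2 and at 2.19 and 1.42 in Cu 1 and 3. Against PDIA4 the ratios were 0.547 and 0.498 in Control and 0.958 and 1.34 in Cu. Against HSP90B1, the HSP90 of the same compartment, they were 0.780 and 0.597 in Control and 1.44 and 1.28 in Cu. All 4 ratios were higher in each Cu library than in each Control library, with the narrowest margin for CANX.

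**Figure D3:**
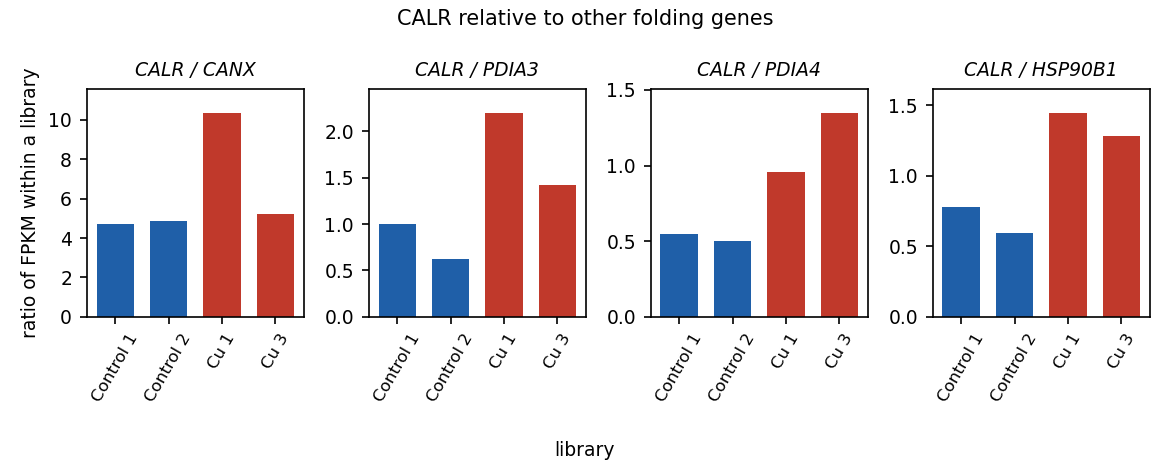
Ratio of the FPKM of CALR to that of CANX, PDIA3, PDIA4 and HSP90B1 within each library, one bar per library, blue for Control and red for Cu, each panel on its own linear axis from 0. Both red bars exceed both blue bars in every panel, by little for Cu 3 in the CANX panel (5.23 against 4.85).

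The disulfide isomerases did not share a direction. PDIA3, or ERp57, binds calnexin and calreticulin and acts on glycoproteins (chr1:127786174-127814096). It had 42.2 (Control 1), 66.2 (Control 2), 55.9 (Cu 1) and 60.1 FPKM (Cu 3), so both Cu libraries lay between the Control libraries. PDIA4, or ERp72 (chr9:109260850-109280256), had 76.8 (Control 1), 83.2 (Control 2), 128 (Cu 1) and 63.4 FPKM (Cu 3). Here the Cu libraries lay on either side of both Control libraries. The log2 fold changes were 0.13 (95% interval -0.70 to 0.97) for PDIA3 and 0.17 (-0.81 to 1.15) for PDIA4, and after upper-quartile scaling they were -0.071 and -0.032. Without Cu 1 the log2 fold change of PDIA4 was -0.33. PDIA6, or P5, an isomerase also known to bind IRE1 (chr3:125752079-125774225), had 28.9 (Control 1), 41.1 (Control 2), 33.0 (Cu 1) and 17.5 FPKM (Cu 3). Only Cu 3 was below both Control libraries, and the log2 fold change was -0.50 (95% interval -1.53 to 0.53). After upper-quartile scaling and quantile normalization it was -0.70 and -0.64, and Cu and Control no longer overlapped. Without Cu 1 it was -0.94. By the authors' means PDIA6 was nearly level, at 26.8 FPKM for Control and 25.8 FPKM for Cu. Adjusted over all genes, limma's p was 0.944 for PDIA3, 0.934 for PDIA4 and 0.803 for PDIA6.

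Within the family of 16 disulfide isomerases and related thioredoxin-domain proteins with values, PDIA3, PDIA4 and PDIA6 together held 47.5% and 55.0% of the summed FPKM in Control 1 and 2 and 47.9% and 45.2% in Cu 1 and 3. PDIA4 alone held between 20.3% and 28.2%. The share of PDIA6 was 9.29% and 11.9% in Control and 7.29% and 5.61% in Cu. Next to them stood TMX2, with 15.1% to 24.5%, and ERP44, with 13.7% to 27.1%. P4HB, the prototype of the family and the partner of prolyl 4-hydroxylase, held at most 0.795%, with 1.49 (Control 1), 0.79 (Control 2), 3.6 (Cu 1) and 1.2 FPKM (Cu 3).

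Both sensors among the 10 genes were nearly level across the libraries. ATF6 (chr4:88591279-88806156) had 16.6 (Control 1), 19.2 (Control 2), 15.6 (Cu 1) and 17.8 FPKM (Cu 3), and the 4 values spanned less than 4 FPKM. ERN1 (chr12:14881913-14963290) had 23.9 (Control 1), 18.0 (Control 2), 22.9 (Cu 1) and 17.1 FPKM (Cu 3). For ERN1 the replicates within each group differed more than the groups did. The log2 fold change was -0.10 (95% interval -0.91 to 0.71) for ATF6 and -0.06 (-0.93 to 0.80) for ERN1, and the adjusted p-values from limma were 0.954 and 0.974. By the authors' means, with 17.2 FPKM for Control and 18.3 FPKM for Cu, ERN1 was on the other side of 0. These intervals leave room for differences of nearly a doubling, so equal levels are not shown.

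The transcription factors differed most in how well the libraries agreed. ATF4, the factor of the PERK and amino acid branches (chr5:8742964-8745752), had 18.7 (Control 1), 23.4 (Control 2), 73.0 (Cu 1) and 19.0 FPKM (Cu 3). Cu 1 was more than 3 times as high as any other library, while Cu 3 lay between the Control libraries. The log2 fold change of 0.81 (95% interval -0.73 to 2.35; limma, adjusted p = 0.790) therefore rested on Cu 1. Without Cu 1 it was -0.13, and without Cu 3, where Cu 1 stands alone against the Control libraries, it was 1.76. DDIT3, which encodes CHOP (chr5:22785441-22789867), had 98.0 (Control 1), 48.7 (Control 2), 87.9 (Cu 1) and 76.8 FPKM (Cu 3). Both Cu libraries lay between the Control libraries, and the Control libraries differed by 0.99 on the log2 scale against a difference of 0.25 between the groups (95% interval -0.74 to 1.23; limma, adjusted p = 0.906). Its locus shares 69 bases with that of MARS, a methionyl-tRNA synthetase, which had 1.25 to 13.04 FPKM. DDIT3 was the second highest of the 10 genes, between percentiles 90.9 and 95.1 of all genes in each library, Control included. XBP1 (chr14:46011239-46016526) was listed at 0 in Control 1, Control 2 and Cu 1 and at 0.03 FPKM in Cu 3. A listed 0 can be a failed estimate, so no fold change is given, and the spliced form could not be assessed.

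The other genes of the pathway were taken from 10 lists with 142 symbols, of which 138 had values and 100 were tested. At an adjusted p of 0.05 limma called 0 of the 100 in either direction. At an unadjusted p of 0.05, 3 were higher (SEC61G, KRTCAP2 and HSPA5), where 5.58% of all tested genes were, and 0 lower, where 1.43% were. With a log2 fold change of 1.5 in addition 1 was higher, SEC61G, against 1.76% of all genes. The median log2 fold change of the 100 was 0.27, compared with 0.16 for all tested genes. Of the 100, 78 were higher and 22 lower in Cu, against 64.3% and 35.7% of all genes. The groups were separated with Cu higher for 29 of the 100 and with Cu lower for 8, shares near those of all genes (25.4% and 13.4%). Against the mean of the Control libraries the median was 0.43 in Cu 1 and 0.13 in Cu 3. At an adjusted p of 0.05, limma called 20 of the 100 higher without Cu 3 and 1, SEC61G, without Cu 1, as it called 1490 and 133 of the 8541 genes, where the spread rests on the Control pair.

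**Figure D4:**
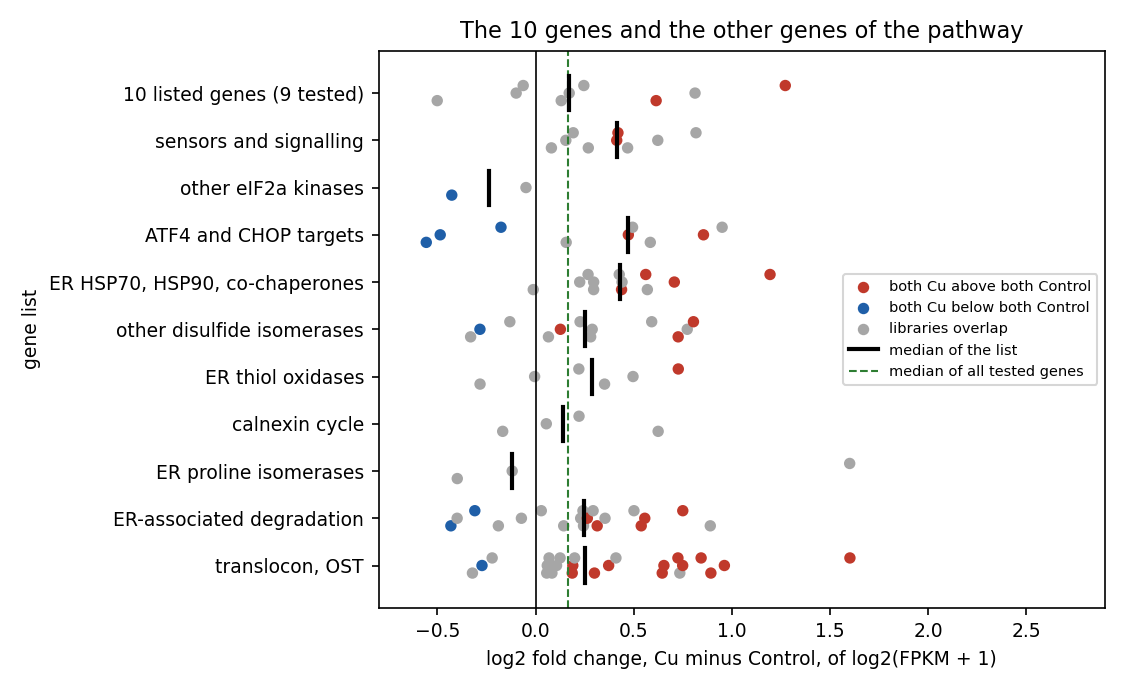
Log2 fold change (Cu minus Control, log2(FPKM + 1)) of each tested gene of the 10 genes and of the 10 pathway lists, one row per list, spread vertically for legibility. Red points mark genes separated by group with Cu higher, blue points with Cu lower, and grey points overlap, black bars are list medians, and the dashed line is the median of all tested genes (0.16). List medians lie on both sides of it, from -0.24 to 0.47.

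Among the chaperones of the HSP70 and HSP90 families and their partners, 11 of 12 tested genes had a log2 fold change above 0, with a median of 0.43, where 64.3% of all genes did. Of the 12, 4 were separated with Cu higher (33.3%), against 25.4% of all genes. The list median was 0.24 after upper-quartile scaling and 0.18 after quantile normalization. HSPA5, or BiP, the HSP70 of the endoplasmic reticulum and a classical target of the unfolded protein response, had 6.36 (Control 1), 11.9 (Control 2), 26.3 (Cu 1) and 17.2 FPKM (Cu 3). All of these were below the levels of CALR in the same library. Its log2 fold change was 1.19 (95% interval 0.13 to 2.26), with an unadjusted p of 0.034 and an adjusted p of 0.656 (limma). Without Cu 1 it was 0.90, without Cu 3 it was 1.49, and without Control 1 or Control 2 it was 0.79 or 1.60. SDF2L1, a BiP cofactor, had 97.5 (Control 1), 111 (Control 2), 219 (Cu 1) and 132 FPKM (Cu 3), which corresponds to a log2 fold change of 0.71, or 0.34 without Cu 1. HSP90B1, or GRP94, had 53.8 (Control 1), 69.4 (Control 2), 85.1 (Cu 1) and 66.6 FPKM (Cu 3). It overlapped between the groups, with a log2 fold change of 0.30 that was 0.12 without Cu 1, and its ratio to HSPA5 was 8.47 and 5.83 in Control and 3.23 and 3.87 in Cu.

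The translocon, the signal peptidase and the oligosaccharyltransferase, which bring chains into the compartment and attach their sugars, had 24 tested genes. Of these, 21 had a log2 fold change above 0, as did 64.3% of all genes, and the median was 0.25. Separation with Cu higher was found for 12 of the 24 (50.0%), against 25.4% of all genes, and with Cu lower for 1, against 13.4%. The list median was 0.050 after upper-quartile scaling and 0.098 after quantile normalization, where those of all genes were -0.0061 and -0.05. Separation depends on scaling too. Over all pathway lists 29 genes were separated with Cu higher, but 14 after upper-quartile scaling and 16 after quantile normalization. No share of all genes is given for those scalings, and whether these genes fell more than all genes was not tested. SEC61G, a small subunit of the channel, had 58.9 (Control 1), 61.6 (Control 2), 166 (Cu 1) and 206 FPKM (Cu 3). Its log2 fold change was 1.60 (95% interval 0.90 to 2.30), with an unadjusted p of 0.0014 and an adjusted p of 0.631 (limma). It was 1.40 after upper-quartile scaling and 1.45 after quantile normalization, below the limit of 1.5. Without Cu 1 it was 1.76, without Cu 3 it was 1.44, and without Control 1 or Control 2 it was 1.57 or 1.63. The authors' mean for Control, 100 FPKM, was above both Control libraries, against 163 FPKM for Cu. KRTCAP2, a subunit of the oligosaccharyltransferase, had 289 (Control 1), 300.1 (Control 2), 591 (Cu 1) and 507 FPKM (Cu 3), a log2 fold change of 0.89 (limma, adjusted p = 0.641, unadjusted p = 0.012). Without Control 1 or Control 2 the unadjusted p was 0.10 or 0.088, and the authors' means were 389 FPKM for Control, above both Control libraries, and 513 FPKM for Cu. The other channel subunits tested, SEC61A1, SEC61A2 and SEC61B, looked up after the values were seen, had log2 fold changes of 0.37, 0.12 and 0.06.

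Of 18 genes around the sensors 9 were tested, all with a log2 fold change above 0 (median 0.41), as had 64.3% of all genes. Against the Control mean, 8 of the 9 were above in Cu 1 and 6 in Cu 3, as were 5726 and 4297 of all 8541 genes. After upper-quartile scaling and quantile normalization the list median was 0.22 and 0.19. Of the 9, 2 were separated with Cu higher (22.2%), near the 25.4% of all genes. EIF2AK3, which encodes PERK, was listed at 0.02 to 0.27 FPKM and was not tested. The eIF2 kinases with the higher levels were EIF2AK4 (GCN2), with 21.3 (Control 1), 19.9 (Control 2), 16.7 (Cu 1) and 13.5 FPKM (Cu 3), and EIF2AK2 (PKR), with 10.2 to 15.6 FPKM. These values of EIF2AK4 were separated with Cu lower, as were those of 13.4% of all genes, at a log2 fold change of -0.43. The authors' means lay closer together. They were 19.3 FPKM for Control, below both Control libraries, and 17.6 FPKM for Cu, above both Cu libraries. EIF2S1, the subunit of eIF2 that these kinases phosphorylate, had 11.6 (Control 1), 18.5 (Control 2), 16.1 (Cu 1) and 33.0 FPKM (Cu 3). CREB3, a membrane-bound factor related to ATF6, had 0.87 (Control 1), 3.06 (Control 2), 6.23 (Cu 1) and 2.26 FPKM (Cu 3). Both overlapped between the groups.

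Targets of ATF4 and CHOP were split, with 6 of 9 tested genes above 0 and 3 below, against 64.3% and 35.7% of all genes. The groups were separated with Cu higher for 2 of the 9 and with Cu lower for 3, against 25.4% and 13.4% of all genes. The list median was 0.47 in the comparison of the groups, 0.61 without Cu 3, -0.13 without Cu 1 and 0.083 without Control 1. The medians of all tested genes were likewise higher without Cu 3 than without Cu 1 (0.31 and 0.0023). ASNS, asparagine synthetase, had 57.0 (Control 1), 74.4 (Control 2), 153 (Cu 1) and 91.9 FPKM (Cu 3), a log2 fold change of 0.86 (limma, adjusted p = 0.708). The authors' means were 94.2 FPKM for Control, above both Control libraries, and 115 FPKM for Cu. Without Cu 1 the log2 fold change was 0.49, and without Cu 3 it was 1.22. SLC3A2, an amino acid transporter subunit, had 0.54 (Control 1), 1.49 (Control 2), 5.45 (Cu 1) and 1.22 FPKM (Cu 3), so only Cu 1 was high.

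The remaining lists held 0 genes at an unadjusted p of 0.05 in limma's test, where 5.58% of all tested genes were higher and 1.43% lower. Of 12 tested disulfide isomerases other than the PDIA genes above, 9 had a log2 fold change above 0, where 64.3% of all genes did. The list median was 0.25, or -0.10 without Cu 1. ERP44, which retains proteins in the early secretory pathway, had 42.7 (Control 1), 51.8 (Control 2), 72.8 (Cu 1) and 84.5 FPKM (Cu 3), a log2 fold change of 0.73. TXNDC5 had 0.53 (Control 1), 0.47 (Control 2), 1.15 (Cu 1) and 2.19 FPKM (Cu 3), or a log2 fold change of 0.80. Of 6 thiol oxidases 4 were above 0, and PRDX4, a peroxiredoxin that feeds oxidizing power to the isomerases, had 26.9 (Control 1), 22.8 (Control 2), 44.1 (Cu 1) and 39.3 FPKM (Cu 3) (log2 fold change 0.73). QSOX2 had a log2 fold change of 0.50, or 0.11 without Cu 1. ERP44, TXNDC5 and PRDX4 were each separated with Cu higher, and the adjusted p from limma was 0.708 for each.

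Beyond the lectins themselves, 4 of 8 genes of the calnexin cycle were tested. UGGT1, the sensor that reglucosylates misfolded glycoproteins, was listed at 0.31 to 0.5 FPKM and was not tested, while its paralog UGGT2 had 2.66 to 3.63 FPKM and a log2 fold change of -0.17. MLEC, malectin, had 11.2 (Control 1), 15.7 (Control 2), 27.9 (Cu 1) and 15.7 FPKM (Cu 3). Of these 4 genes, 0 had libraries separated by group, where 25.4% of all genes had with Cu higher and 13.4% with Cu lower. So few genes do not set this list apart from all genes. The proline isomerases had 3 tested genes. PPIB, cyclophilin B, had 12.4 (Control 1), 4.44 (Control 2), 50.5 (Cu 1) and 11.96 FPKM (Cu 3), a log2 fold change of 1.60 (95% interval -0.26 to 3.46) that was 0.60 without Cu 1 and 2.60 without Cu 3. FKBP9, the most abundant of them, had 178 (Control 1), 185 (Control 2), 188 (Cu 1) and 100.3 FPKM (Cu 3).

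For degradation of misfolded proteins from the compartment, 14 of 19 tested genes had a log2 fold change above 0, where 64.3% of all genes did. The list median was 0.24, or -0.07 without Cu 1. SYVN1, or HRD1, the central ubiquitin ligase, had its highest level, 15.0 FPKM, in Cu 1 and its lowest, 6.77 FPKM, in Cu 3, with the Control libraries in between. DERL2 and DERL3, members of the derlin family, were separated with Cu higher, at log2 fold changes of 0.75 and 0.56, which were 0.28 and 0.34 without Cu 1. DERL3 was weakly expressed, at 0.78 to 2.65 FPKM. Its authors' mean for Cu, 1.51 FPKM, was below both Cu libraries and below Control 1 (1.57 FPKM), against 1.24 FPKM for Control. In this list 5 of the 19 genes were separated with Cu higher (26.3%) and 2 with Cu lower, close to the 25.4% and 13.4% of all genes.

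The genes whose pattern over the 4 libraries was most like that of CALR, by Euclidean distance between centred log2(FPKM + 1) profiles among 108 tested genes of the 10 genes and the lists, were KRTCAP2 (0.437), ASNS (0.524) and HSPA5 (0.593). The median distance of all tested genes from CALR was 1.29. For PDIA4, the gene with the highest level, they were DNAJC1 (0.240), PPP1R15A (0.274) and EDEM1 (0.275), against a median of 0.822, and each of these was highest in Cu 1 and lowest in Cu 3. With 4 libraries such likeness is a description only.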

How the data were processed

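The authors' deposited table holds FPKM per library, rounded to 2 decimals, for 16050 of 30684 rows, all of type mRNA, and a mean FPKM per group, used only as the authors' mean. The paper's methods name SOAPnuke, HISAT2, Bowtie2 and RSEM, while the submitters' processing notes name TopHat2 2.0.13, Cufflinks 2.2.1 and Sscrofa11.1, so which produced the table is not settled. FPKM carry no counts, depth is unknown, and no interval or floor that needs it is given. Groups and replicate numbers were taken from sample titles.

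From the FPKM, log2(FPKM + 1) was tested for the 8541 genes that reached 1 FPKM in 2 or more libraries, using lmFit and eBayes with a variance trend (limma 3.58.1, R 4.3.3) and Benjamini-Hochberg adjustment over all of them. The fit was also run on simulated data, with changes larger than that of CALR and the same spread in both groups. It therefore does not show how well changes of the size seen here are found. Since the values are not counts, the count-based test of the paper could not be applied. Scaling to TPM or by upper quartile was applied before the filter.

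The 10 genes and the lists were chosen with earlier results of these data known. Named were the 10 genes, 6 well-known pathway genes (HSPA5, HSP90B1, P4HB, EIF2AK3, UGGT1, SYVN1), the 2 tested genes of smallest p in each list, and the nearest profiles. MARS is named for its overlap. Alternatives were pseudocount, filter, scaling, trend, fold change limit and each library left out. The comparison of the authors' means was chosen after seeing the data. All 16050 gene identifiers matched RefSeq of Sscrofa11.1, the source of positions.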

Additional observations from a re-analysis of the deposited data

How the results depend on the processing

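No paired analysis was possible because the groups share fewer than 2 replicate numbers (1 and 2 in Control, 1 and 3 in Cu). Depth is unknown, so how precisely weakly expressed genes such as EIF2AK3 or XBP1 were measured cannot be given. A fit without 1 library assumes that the lone library of a group varies like the other pair, and without a Cu library the spread rests on the Control pair, whose values lie closer together. CALR and CANX were above 0, and PDIA6 below 0, in all 12 fits.

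Of all tested genes, 150 were higher and 10 lower past both limits (p of 0.05 before adjustment, log2 fold change of 1.5). These counts were 246 and 24 with a pseudocount of 0.1, 97 and 20 after upper-quartile scaling, 375 and 55 at a fold change limit of 1, and 20 and 18 lower after quantile normalization and TPM scaling. Leaving out each library gave 77 to 741 higher and 11 to 41 lower, and 0 to 1490 higher and 0 to 265 lower at an adjusted p of 0.05. At that adjusted p, 133 were higher and 53 lower without Cu 1, and 1490 and 265 without Cu 3.

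Of the 9 genes, 1 (CALR) passed both limits upward at a fold change limit of 1. The count with both Cu libraries above was 1 after quantile normalization, and the count below was 1 (PDIA6) after upper-quartile scaling and quantile normalization. Leaving out each library gave 0 to 2 at an adjusted p of 0.05 (CALR and ATF4 without Cu 3), 0 to 2 past p and fold upward, 0 to 3 higher and 0 to 1 lower (PDIA6 without Cu 1) at an unadjusted p of 0.05, 2 to 4 with the Cu side above and 1 to 3 below. At an unadjusted p of 0.05, more of all tested genes passed with a Cu library left out than with none left out. With a Control library left out, fewer did. A lone library in a group also makes separation easier to reach, for all genes as for the 9. Whether the 9 genes differed from all genes in these counts was not tested. The median of 0.17 was -0.032 after upper-quartile scaling, 0.061 after quantile normalization and -0.010 to 0.34 with libraries left out.

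Signs turned for PDIA4 (-0.032, upper quartile), PDIA3 (-0.071, upper quartile, and -0.0043, quantile) and ERN1 (0.082, authors' means). With libraries left out, the ranges were -0.33 to 0.67 for PDIA4, -0.25 to 0.74 for DDIT3, -0.19 to 0.45 for PDIA3, -0.13 to 1.76 for ATF4, -0.26 to 0.14 for ERN1 and -0.20 to 0.00095 for ATF6.

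Of the 100 other pathway genes, 0 passed both limits after upper-quartile scaling and quantile normalization, and 2 at a fold change limit of 1. Both Cu libraries were above for 14 and 16 after upper-quartile scaling and quantile normalization, and below for 14 after upper-quartile scaling. Their median was 0.082 and 0.11 after those scalings and 0.13 to 0.43 with libraries left out. Leaving out each library gave 1 to 5 past both limits, 0 to 20 at an adjusted p of 0.05, 41 to 65 with the Cu side above and 12 to 28 below. The cause of these changes was not tested. For separation after another scaling or with a library left out, no share of all genes is given beside these counts.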
